A study of Mus musculus with 4 samples.

Results

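The genes of the cytosolic ribosomal proteins were followed in CD45+ cells, that is leukocytes, of the small-intestinal muscularis of mice after surgical handling of the gut. Members were all genes of the count tables whose symbol begins with Rpl or Rps and a digit, together with Rplp0, Rplp1, Rplp2 and Rpsa, without the Rps6k kinases (8 genes) and without symbols that carry -ps (8 genes). This rule found 86 of 16308 genes. Of these, 77 encode core ribosomal proteins (31 of the small 40S subunit and 46 of the large 60S subunit, 3 of them in its P stalk), 8 are paralog copies of a core gene, and Rps19bp1 only shares the prefix. There were 4 libraries, 1 per group. WT C57BL/6J mice and CCR2 KO mice (B6.129S4-Ccr2tm1Ifc/J), all female and 12 weeks old, were sampled at 24 h and at 72 h post-injury, and every group had undergone the intestinal manipulation. Monocytes need CCR2, a chemokine receptor, to leave the marrow, so that the KO is a model of an inflamed muscularis with few incoming monocytes. The receptor is missing from all cells of these mice from birth, and each library pools several mice. Wherever 4 values are given for the libraries, the first pair is WT and CCR2 KO at 24 h and the second pair WT and CCR2 KO at 72 h.

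Ribosomal proteins are made in equal numbers for the assembly of ribosomes, and their mRNAs are among the most abundant of most cells. Many of them begin with a terminal oligopyrimidine tract, a run of C and T bases at the 5' end through which the kinase mTOR sets their translation. Mature neutrophils are known for a small content of RNA and of ribosomes, whereas lymphocytes, Mφs and dendritic cells keep making protein.

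The files held 5811 cells, 1048 to 1774 per library. Total unique molecular identifiers (UMIs) ran from 9736725 to 21206308 per library and the median per cell from 3281.5 in CCR2 KO 24 h to 12859 in WT 24 h. Cells were classed by the number of marker genes detected, which put 5270 cells in 1 class, while 325 passed no gate and 216 that passed 2 gates were left out. Only 4 cell barcodes occurred in more than 1 library. With 1 library per group there was no spread between samples to test against, so intervals are 95% intervals of counting error and no p-value is given. Each comparison is between 2 libraries, and genotype and library cannot be told apart. Levels are counts of a gene scaled to 1000000 UMIs of a class (CPM). They are not divided by transcript length, since the assay counts 3' ends, and levels of different genes are comparable only as counts of 3' ends.

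Members took 12.4% of all UMIs. They made up 39 of the 100 most abundant genes, 62 members exceeded 1000 CPM over all cells, and the median core gene was at 1550.1 CPM. The 10 highest members held 23.4% of member UMIs. The highest were Rps24 (3228 CPM), Rpl13 (3208), Rps27a (3096), Rpl23 (3008) and Rpl32 (2846). Rps24 belongs to the 40S subunit, Rps27a is made as a fusion with ubiquitin, and the other 3 belong to the 60S subunit. The lowest were Rpl10l (0.155 CPM, 9 UMIs in all), Rpl39l (0.811), Rpl3l (3.26), Rpl27 (12.6) and Rpl10 (22.8), and no member was without a UMI. Rpl10l and Rpl39l are known as testis copies and Rpl3l as a copy of striated muscle. Rpl27 and Rpl10, by contrast, encode core 60S proteins, and their low counts are uncertain. Within the last 200 bases of their transcripts they share 60 identical bases with Rpl27-ps3 (1624 UMIs compared with 732 of Rpl27) and Rpl10-ps3 (2101 compared with 1323), rows that the name rule leaves out. The same holds for Rps12 and Rps12-ps3 (1346 and 1884 UMIs). Altogether 59 members shared such a stretch with some other annotated gene and 16 with another row of the tables, and reads from these stretches may have been dropped or split in counting.

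The share of UMIs from members set the cell classes apart (plot of shares by class). In neutrophils it was 1.61% (1.58 to 1.64) in WT 24 h, 1.83% (1.81 to 1.84) in CCR2 KO 24 h, 3.97% (3.91 to 4.02) in WT 72 h and 4.44% (4.41 to 4.46) in CCR2 KO 72 h. In monocytes/Mφs, in the same order, it was 12.5%, 12.5%, 13.4% and 15.1%. In dendritic cells it ran from 14.3% to 15.8%, in T cells from 18.2% to 21.3%, in NK cells from 16.0% to 19.99% and in B cells from 25.6% to 30.9%. Neutrophils were thus the lowest class and B cells the highest in each library, although WT 24 h held only 13 T cells, 4 NK cells, 5 B cells and 1 innate lymphoid cell. Innate lymphoid cells (14.8% to 18.3%) lay near dendritic cells. Of the 100 most abundant genes of a class, 0 to 4 were members in neutrophils, 38 to 50 in monocytes/Mφs and 62 to 65 in B cells. In UMIs per cell the distance was wider still, because neutrophils were also shallow. A neutrophil held 39.6, 58.1, 103 and 183 member UMIs on average in the 4 libraries, compared with 1899, 2176, 1864 and 2437 in a monocyte/Mφ.

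**Figure D1:**
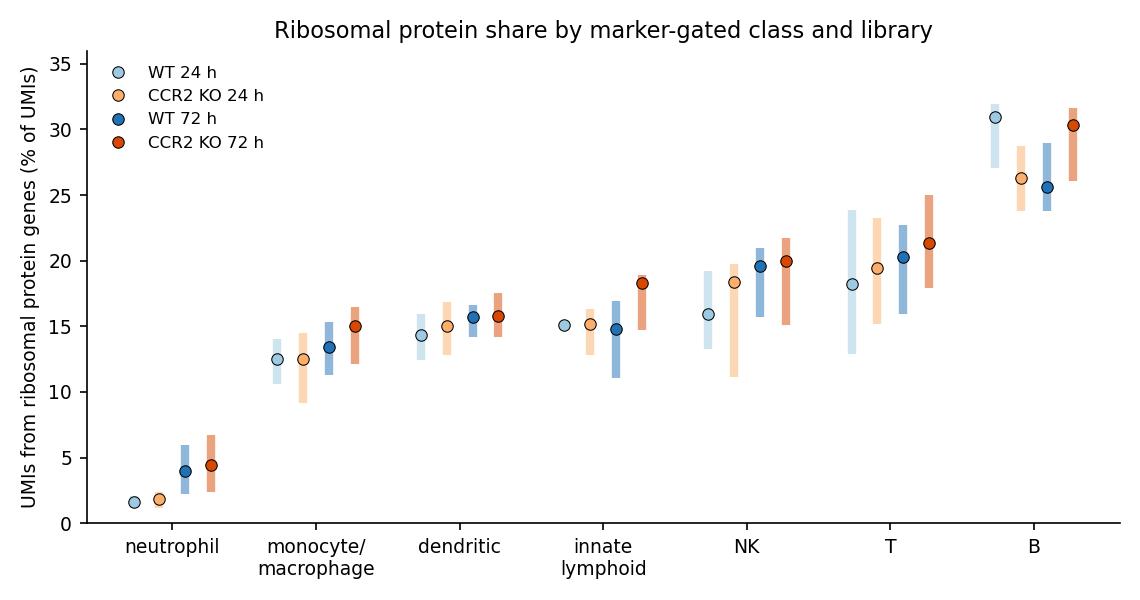
Share of UMIs from the 86 ribosomal protein genes (vertical axis, percent of the UMIs of a class) for 7 marker-gated classes in 4 libraries. Points are the pooled share of a class and bars run from the lower to the upper quartile of its single cells; neutrophils lie between 1.61% and 4.44% and B cells between 25.6% and 30.9%.

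The balance of the subunits moved far less than the total. The summed CPM of 40S genes was 0.81 to 1.03 times that of 60S genes over all classes and libraries. The highest value was that of WT 24 h neutrophils, where Rps9 alone had 1774 of the 8082 CPM of 40S genes. Paralog copies and Rps19bp1 together gave 0.423% to 1.83% of member UMIs, with the 3 highest values in neutrophils.

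The share of a whole library was set beside its class mix. It was 12.3%, 9.33%, 13.8% and 13.8% in the 4 libraries. Neutrophils were 70.7% of the cells of CCR2 KO 24 h, compared with 17.8% in WT 24 h. At 72 h they were 48.2% in CCR2 KO and 12.9% in WT. Weighted to the class mix of WT 24 h, the shares became 12.2%, 12.3%, 13.2% and 14.7%, so that the low value of CCR2 KO 24 h was not seen at equal class mix. The shares of WT and CCR2 KO at 72 h, alike before weighting, lay further apart after it.

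Most members took part in the difference between classes. Relative to neutrophils, the summed members were 13.1, 11.3, 5.29 and 4.94 times higher in lymphocytes (T, NK and B cells together) in the 4 libraries, and 7.77, 6.86, 3.38 and 3.39 times higher in monocytes/Mφs. Of 78 members at 100 CPM or more in the higher class, 77 were higher in lymphocytes than in neutrophils in all 4 libraries, with a median log2 ratio of 3.02. Relative to monocytes/Mφs, lymphocytes were 1.46 to 1.68 times higher, and 67 of 78 members were higher in each library. These ratios compare classes of the same library and are descriptions.

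The members furthest from neutrophils were Rps4x, the X-linked copy of the 40S protein S4, with a mean log2 ratio of lymphocytes to neutrophils of 5.20, Rpl10a (5.01) of the L1 stalk, Rpl3 (4.95), which reaches toward the peptidyl transferase centre, Rpl36a (4.91) of the 60S subunit and Rpl12 (4.61) at the base of the P stalk. Rps4x (chromosome X, 102184941 to 102189394, minus strand, GRCm38) was at 61.4, 58.7, 173 and 215 CPM in neutrophils and at 4211, 3782, 4149 and 3738 CPM in lymphocytes of the 4 libraries. No neutrophil value came near a lymphocyte value. At the other end was Rps9, which sits at the mRNA entry of the 40S subunit. Rps9 (chromosome 7, 3703993 to 3706897, plus strand) was at 1774, 1211, 1609 and 1432 CPM in neutrophils, 2733, 2144, 3812 and 2876 in monocytes/Mφs and 3894, 2968, 3631 and 3063 in lymphocytes, a mean log2 ratio of lymphocytes to neutrophils of only 1.17. It was the highest member in neutrophils at 24 h. Rpl41 (1.79), Rps25 (1.88) and Rps29 (1.95) came next. The paralog Rps27l, known as a target of p53, was the 1 member that was not always higher in lymphocytes. Its log2 ratios were 0.93 and 0.74 at 24 h but -0.94 and -0.91 at 72 h.

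The DNA around the starts of these genes is shown for members at both ends of that order and for members that recur below. Each line gives 20 bases before and 10 bases from the transcript start that RefSeq annotates on GRCm38.p6, 5' to 3' on the strand of the gene. Capitals mark CTTTC or CTTTTC, 2 forms of the pyrimidine run near which these mRNAs begin.
Rps4x, chrX:102189382-102189411, minus strand: aaagtctgaggctgggcggagcaacccagg
Rpl36a, chrX:134585634-134585663, plus strand: aggaagtgcacccaggcaccgcctataaac
Rpl12, chr2:32961692-32961721, plus strand: gcgtgggcggagcaggatccgtCTTTTCgg
Rps9, chr7:3704021-3704050, plus strand: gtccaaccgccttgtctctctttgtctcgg
Rpl41, chr10:128549159-128549188, minus strand: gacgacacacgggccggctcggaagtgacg
Rps25, chr9:44407694-44407723, plus strand: tcctttttttccgacatcttagcgaggctg
Rps18, chr17:33955656-33955685, minus strand: acttatacgtcacttccgctctctcttcca
Rpl38, chr11:114668560-114668589, plus strand: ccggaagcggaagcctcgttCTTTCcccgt
Rpl35, chr2:39005122-39005151, minus strand: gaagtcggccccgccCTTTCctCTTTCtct
Rps28, chr17:33824553-33824582, minus strand: tcctgggtaccgcgtgcggtctcgcgagag

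Of the members, 66 were found in the RefSeq promoter table. Within 50 bases before to 50 bases after the start, on the strand of the gene, CTTTC or CTTTTC occurred in 40 of them (60.6%), compared with 17.9% of 27025 genes and 15.6% of the 11814 genes of the count tables that are no members. CTTTC alone was found in 51.5% and in 14.6% of all genes. Over the whole 300 bases and both strands, CCGGAAG, the letters that ETS factors read, occurred in 39.4% of members, compared with 9.93% of all genes and 17.8% of the genes of the count tables that are no members. TATAAA near the start was found in 7.58% (4.05%). Members with and without CTTTC or CTTTTC differed little in their values. Their median log2 ratio of lymphocytes to neutrophils was 3.08 (37 members) and 2.96 (21 members), a small gap beside the range of the members from -0.04 to 5.20. Matches are letters in a window and not sites of binding, and annotated starts can lie some bases away from those used in these cells.

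Between 24 h and 72 h the member share differed most in neutrophils. Their member share was 2.46 times higher at 72 h in WT (2.41 to 2.52) and 2.43 times higher in CCR2 KO (2.40 to 2.45). Of 75 members at 50 CPM or more in the higher library, 73 were called higher in WT, that is by over 0.5 on the log2 scale with an interval that does not hold 0, where 38.1% of all 3139 genes tested were. In CCR2 KO 77 of 78 were called higher, compared with 33.1% of 3048 genes. No member was called lower in either genotype, compared with 10.5% and 14.5% of all genes. The median log2 ratio of members was 1.50 in WT and 1.38 in CCR2 KO, and that of all genes 0.39 and 0.20. Scaling by TMM, which centres the bulk of the genes and took 0.59 and 0.55 off each log2 ratio, left 62 and 65 members called higher and Rps9 in WT called lower. The share of all genes called under TMM was not computed.

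The neutrophils, too, lay in different Leiden clusters at each time. The cluster of the highest member share, led by Il1b, Mmp9 and Cxcl2, held 4.36%, 3.67%, 52.7% and 60.2% of the neutrophils of the 4 libraries. Its share was 3.39%, 4.06%, 5.79% and 6.35%. By its markers this cluster was named neutrophil with a score of 0.62, close to the minimum of 0.6. In the cluster led by S100a9, S100a8 and Retnlg the share was 1.20%, 1.11%, 2.19% and 2.03%, so that within either of these clusters it was higher at 72 h in both genotypes. Neutrophils in a cluster led by Ccl3, Cxcl2 and Il1rn had shares of 1.61%, 1.57%, 1.59% and 2.17%, not higher at 72 h in WT. The clusters were made from the same counts. The median mitochondrial share of a neutrophil was also higher at 72 h, at 0.406%, 0.318%, 0.658% and 0.824%. The part of neither in the result was tested.

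**Figure D2:**
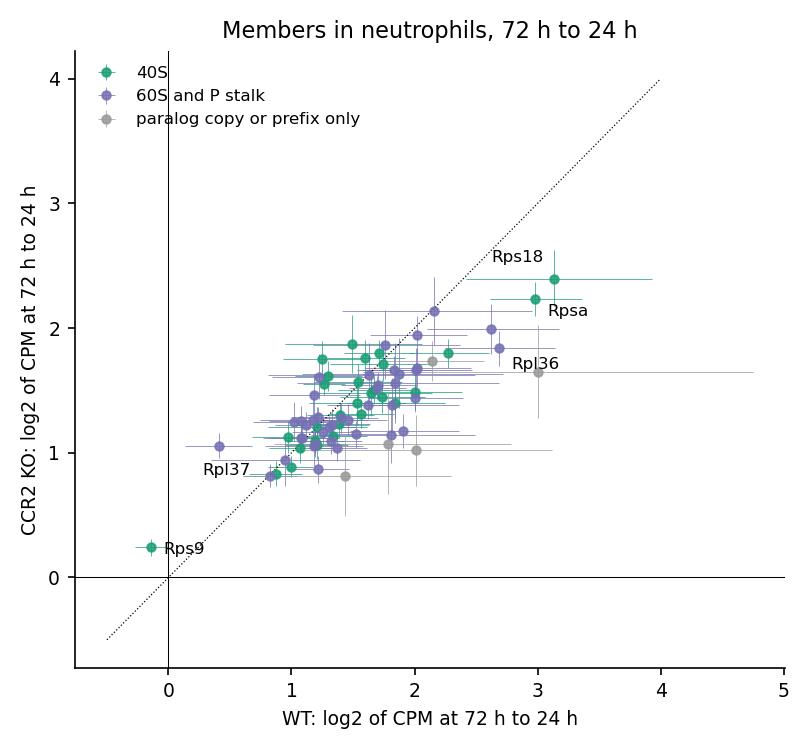
Log2 ratio of CPM at 72 h to 24 h in neutrophils for each member, WT on the horizontal and CCR2 KO on the vertical axis. Bars are 95% counting intervals, colours mark the subunit and the dotted line marks equal ratios; 74 of 75 members have the same sign in both genotypes and Rps9 lies apart near 0.

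The members kept much of their order in both genotypes, which rest on 4 separate libraries. Over 75 members the ratios of WT and CCR2 KO had a Pearson r of 0.77 and a Spearman rho of 0.70, a description across genes that are not independent. Rps18 of the 40S head went from 25.9 to 228 CPM in WT (log2 ratio 3.14, 2.42 to 3.93) and from 56.5 to 297 in CCR2 KO (2.40, 2.17 to 2.62). Rpsa, known also as the laminin receptor precursor, went from 99.6 to 786 CPM (2.98) and from 156 to 731 (2.23). Rpl36 was among the furthest up in WT (2.69) and Rpl36a in CCR2 KO (2.68). Both times lay far apart for these genes. At the other end Rps9 went from 1774 to 1609 CPM in WT (-0.14, -0.28 to -0.01) and from 1211 to 1432 in CCR2 KO (0.24, 0.18 to 0.31, which TMM scaling turned to -0.30), the 1 member not called in CCR2 KO. Rpl37 in WT (0.41), Rpl23 (0.82 in both) and Rps10 in CCR2 KO (0.83) were the next lowest. Members with CTTTC or CTTTTC near the start had medians of 1.62 and 1.46, the others 1.43 and 1.26.

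Single neutrophils spread over a wider range at 72 h (histograms of single cells). At 24 h 0.671% of WT neutrophils (2 of 298) and 2.39% of CCR2 KO neutrophils (30 of 1254) had over 5% of their UMIs from members. At 72 h these were 36.7% (62 of 169; interval 29.4 to 44.4) and 48.5% (245 of 505; 44.1 to 53.0). Their median depth (2543 and 3279 UMIs) was close to or below that of the other neutrophils at 72 h (2491 and 4263).

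**Figure D3:**
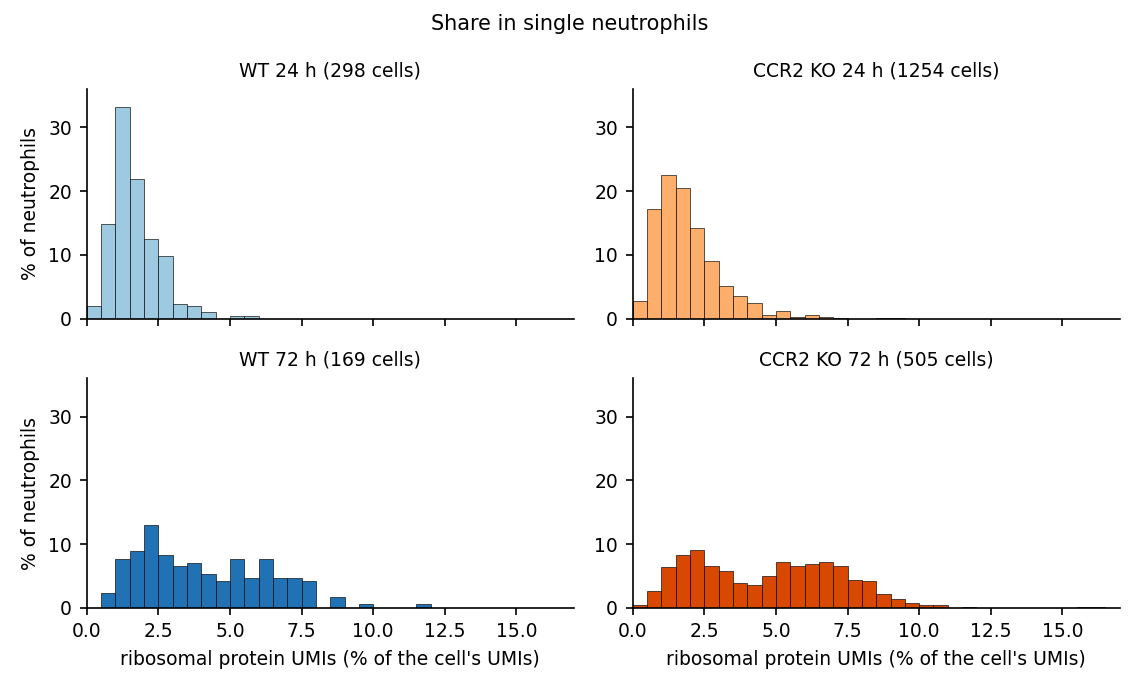
Share of UMIs from members in single neutrophils (horizontal axis, bins of 0.5 percent) as percent of the neutrophils of each library (vertical axis). At 24 h nearly all cells lie under 5%, whereas at 72 h 36.7% of WT and 48.5% of CCR2 KO neutrophils lie above it.

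The cells above 5% often held a UMI of Siglecf, a lectin gene of eosinophils and of some tissue neutrophils. Siglecf was found in 24 of 298, 182 of 1254, 71 of 169 and 249 of 505 neutrophils of the 4 libraries. At 72 h 39 of the 62 WT cells and 171 of the 245 CCR2 KO cells above 5% held it. The study names a cluster with Siglec-f, Cxcr4 and Pim1 eosinophils and counts it among the main populations at 72 h. Of the eosinophil genes, Prg2 was at 0 UMIs in all neutrophils and Ccr3 at no more than 16 UMIs in any group of these cells. Neutrophils with Siglecf and without Retnlg, a gene of freshly arrived neutrophils, had a member share of 2.18%, 2.65%, 5.73% and 6.53% in the 4 libraries. Those with Retnlg and without Siglecf had 1.47%, 1.32%, 2.30% and 1.99%. Both kinds were thus higher at 72 h than at 24 h in each genotype, and of these 2 kinds cells with Siglecf alone were higher in each library. Cells with neither gene were 38.3%, 63.6%, 32.0% and 25.5% of the neutrophils of the 4 libraries. Their share was 1.86%, 1.91%, 3.96% and 5.44%. Cells with both genes had 1.58%, 1.67%, 2.42% and 3.41%. Without the cells that held a Siglecf UMI, an alternative chosen after the data had been seen, the share at 72 h was 1.95 times that at 24 h in WT (1.90 to 2.01) and 1.79 times in CCR2 KO (1.77 to 1.82). Then 71 of 76 and 67 of 74 members were called higher, compared with 26.8% and 19% of all genes, and 0 lower (9.42% and 19.9%).

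Markers of Mφs were measured in the neutrophils beside the members. The 13 Mφ markers, all of them detected in neutrophils at 24 h and 11 at 72 h, summed to 1529, 1294, 1584 and 1823 CPM in neutrophils. This was 5.92%, 5.09%, 2.52% and 7.79% of their level in monocytes/Mφs of the same library, while the member share was 12.9%, 14.6%, 29.6% and 29.5% of it. The part of such RNA in the result was not tested. Cells that passed 2 gates bear on the WT ratio. When they were kept, which raised the WT 24 h neutrophils from 298 to 304 cells, the log2 ratio of the summed share of 72 h to 24 h was 0.63 in WT instead of 1.30, and 1.33 in CCR2 KO instead of 1.28. No doublet caller was run.

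The member share of monocytes/Mφs differed less between the times than that of neutrophils. It was 1.07 times higher at 72 h in WT (1.07 to 1.07) and 1.20 times in CCR2 KO (1.20 to 1.21). In WT 1 of 78 members was called higher and 5 lower, compared with 17.1% and 27.2% of all genes. Rplp1 of the P stalk, which recruits elongation factors, was the 1 called higher (1142 to 1712 CPM, log2 ratio 0.58). Rps27l (632 to 349 CPM, -0.86), Rpl7l1 (117 to 65.3, -0.84) and Rps2 (1389 to 870, -0.68) were the furthest down, and Rpl36al and Rpl22l1 were the other 2 called lower. In CCR2 KO 16 of 79 members were called higher and 1 lower, compared with 21.8% and 16.9% of all genes. Here Rpl22l1 (256 to 636 CPM, 1.31), Rpl13a (215 to 399, 0.89) and Rpl37a (2105 to 3875, 0.88) were the furthest up, and Rpl7l1 (-0.27), Rps3 (-0.20) and Rps2 (-0.18) the furthest down at 100 CPM or more. Rps19bp1, at 52.8 and 34.3 CPM, was the 1 called lower. TMM scaling left 0 members called higher in WT and 6 in CCR2 KO, with no share of all genes computed for it. Without TMM the shares of members called were at or below those of all genes in both genotypes. The class was made of different cells at each time. A Leiden cluster led by Apoe and C1q genes held 0.825% of the WT monocytes/Mφs at 24 h and 60.7% at 72 h, and clusters led by Lyz2 with Ccl2 and by Ccl2 with Ccl7 held 36.3% and 33.3% at 24 h and 1.20% and 1.44% at 72 h. The part of this shift in the ratios was not tested, nor that of plasma cell RNA, whose markers are given below.

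Genes that serve the making of ribosomes were lower at 72 h in these cells. Of the ribosome biogenesis list, factors of the nucleolus such as Ncl, Fbl and Nop56, 16 of 18 tested genes were called lower at 72 h in WT and 13 of 17 in CCR2 KO, with 0 called higher in either, and medians of -1.33 and -0.78 (27.2% and 16.9% of all genes were called lower). In neutrophils 5 of 6 tested genes of this list were called higher in each genotype (medians 1.18 and 0.98), compared with 38.1% and 33.1% of all genes. Translation factors and other mRNAs with a terminal oligopyrimidine tract, such as Eef1a1 and Eef1b2, were also measured. In neutrophils 17 of 18 were called higher at 72 h in WT and 15 of 16 in CCR2 KO (medians 1.22 and 1.02), compared with 38.1% and 33.1% of all genes. In monocytes/Mφs 2 of 18 were called higher and 2 lower in WT (17.1% and 27.2% of all genes). In CCR2 KO 4 were called higher and 0 lower there (21.8% and 16.9% of all genes). Eef1a1, the elongation factor that brings aminoacyl tRNA, was at 495, 488, 775 and 1042 CPM in neutrophils of the 4 libraries and at 5941, 5139, 6002 and 5595 CPM in monocytes/Mφs. Mitochondrial ribosomal proteins (78 genes) were called higher in neutrophils in 18 of 23 tests in WT and 15 of 20 in CCR2 KO (38.1% and 33.1% of all genes). In monocytes/Mφs 26 of 49 were called lower in WT (27.2% of all genes). In CCR2 KO 2 of 45 were called higher and 4 lower there, compared with 21.8% and 16.9% of all genes. Of the S6 kinases at most 2 reached 50 CPM in a comparison. In both classes and genotypes 1 was called higher at 72 h (17.1% to 38.1% of all genes). Of the genes that control ribosomal protein translation (Mtor, Larp1, Myc and others) at most 5 reached it. In neutrophils 1 of 3 was called higher in WT and 3 of 4 in CCR2 KO (38.1% and 33.1% of all genes), and 0 lower (10.5% and 14.5%). In monocytes/Mφs 1 of 5 was called higher and 2 lower in WT (17.1% and 27.2%). In CCR2 KO 1 of 5 was called higher and 1 lower there (21.8% and 16.9%).

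To ask whether the loss of CCR2 went with a change in these genes, CCR2 KO was compared with WT within each class. In monocytes/Mφs the summed members were 1.001 times the WT level at 24 h (0.998 to 1.004) and 1.12 times at 72 h (1.12 to 1.13). The cells were not alike. At 72 h 60.7% of the WT cells lay in the Apoe and C1q cluster, compared with 1.68% of the CCR2 KO cells, and 59.7% of the CCR2 KO cells lay in another cluster led by C1qa and Apoe, compared with 6.35% of the WT cells. In that second cluster the member share was 13.4% in WT and 15.2% in CCR2 KO. Cells with 3 or more markers of division made up 4.55% of the class in WT and 36.1% in CCR2 KO, and in cells without such a marker the share was 13.3% and 14.3%. Markers of plasma cells (6 genes) summed to 7.995 CPM in monocytes/Mφs of WT 24 h and 13.4 CPM in those of CCR2 KO 24 h. At 72 h they summed to 43.6 CPM in WT and 1164.6 CPM in CCR2 KO, where all 6 were detected. The part of clusters, of dividing cells and of plasma cell RNA in the member ratios was not tested. At 24 h 7 of 79 members were called higher and Rpl22l1 lower, compared with 7.68% and 7.99% of all genes. At 72 h 24 of 78 were called higher and 0 lower, compared with 21.1% and 11.4%. In neutrophils the sum was 1.13 times higher at 24 h (1.11 to 1.16), with 18 of 69 members called higher and 1 lower (16.9% and 8.12% of all genes), and 1.12 times higher at 72 h (1.10 to 1.14), with 12 of 78 called higher and 0 lower (5.6% and 7.41%). In neutrophils without a Siglecf UMI the ratio at 72 h was 1.002 (0.978 to 1.03), with 3 of 77 called higher and 1 lower (4.64% and 13.2% of all genes). With cells of 2 gates kept, the neutrophil ratio at 24 h turned to a log2 ratio of -0.68. In dendritic cells the sum was 1.05 and 1.01 times and in T cells 1.06 and 1.05 times the WT level at 24 h and 72 h. In dendritic cells 9 of 78 members were called higher at 24 h (8.26% of all genes) and 16 of 79 at 72 h (5.83%), and 0 lower (8.15% and 5.38%). In T cells 9 of 79 were called higher at 24 h (5.75%) and 17 of 79 at 72 h (5.06%), and 0 lower (5.55% and 6.08%).

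Behind these small sums the members differed among themselves, and in much the same order at both times (plot of CCR2 KO to WT by member). The 24 h and the 72 h comparison rest on separate libraries. Over members, their log2 ratios had a Pearson r of 0.73 in monocytes/Mφs (78 members), 0.69 in neutrophils (69), 0.90 in dendritic cells (78) and 0.68 in T cells (79). Of the 7 members called higher in monocytes/Mφs at 24 h, 7 were called higher at 72 h, compared with 68 of 186 (36.6%) among all genes called higher at 24 h. In neutrophils this held for 9 of 18 members and 46 of 391 genes (11.8%), in dendritic cells for 7 of 9 members and 45 of 223 genes (20.2%), and in T cells for 6 of 9 members and 35 of 212 genes (16.5%). Members and all genes were not matched for level here, and the part of level in these counts was not tested.

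Rpl38, a 60S protein known for its role in the translation of Hox mRNAs, was one of the highest. Rpl38 (chromosome 11, 114668524 to 114672331, plus strand) was at 869 CPM in WT 24 h, 1297 in CCR2 KO 24 h, 781 in WT 72 h and 1896 in CCR2 KO 72 h in monocytes/Mφs (log2 ratios 0.58 and 1.28). In neutrophils it was at 115, 280, 460 and 760 CPM, in dendritic cells at 709, 1222, 808 and 1527 and in lymphocytes at 1276, 1996, 1241 and 2455. In each of these classes both CCR2 KO values exceeded the WT value of the same time. Rps28, a small 40S protein at the mRNA exit, was at 908, 1353, 1024 and 2054 CPM in monocytes/Mφs and at 109, 270, 392 and 711 in neutrophils. Rpl41, the shortest of the ribosomal proteins, was at 1845, 2550, 1976 and 4525 CPM in monocytes/Mφs (log2 ratio 1.20 at 72 h). Rplp1 (0.66) and Rps29 (0.65) were the furthest up there at 24 h, and Rpl21 (1.23) in neutrophils came after Rps28 (1.31) and Rpl38 (1.29). At 72 h Rpl36a (1.41), Rpl35 (0.89) and Rpl37 (0.86) were the furthest up in neutrophils.

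Rps9 stood at the low end. It was lower in CCR2 KO in monocytes/Mφs (-0.35 at 24 h, -0.41 at 72 h) and in neutrophils at 24 h (-0.55). Rpl13 (-0.25) was also among the lowest in monocytes/Mφs at 24 h, not past 0.5. In neutrophils Rps27a (-0.45) and Rpl15 (-0.39) at 24 h, and Rpl19 (-0.20), Rps13 (-0.20) and Rps6 (-0.19) at 72 h were the lowest at 100 CPM or more.

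**Figure D4:**
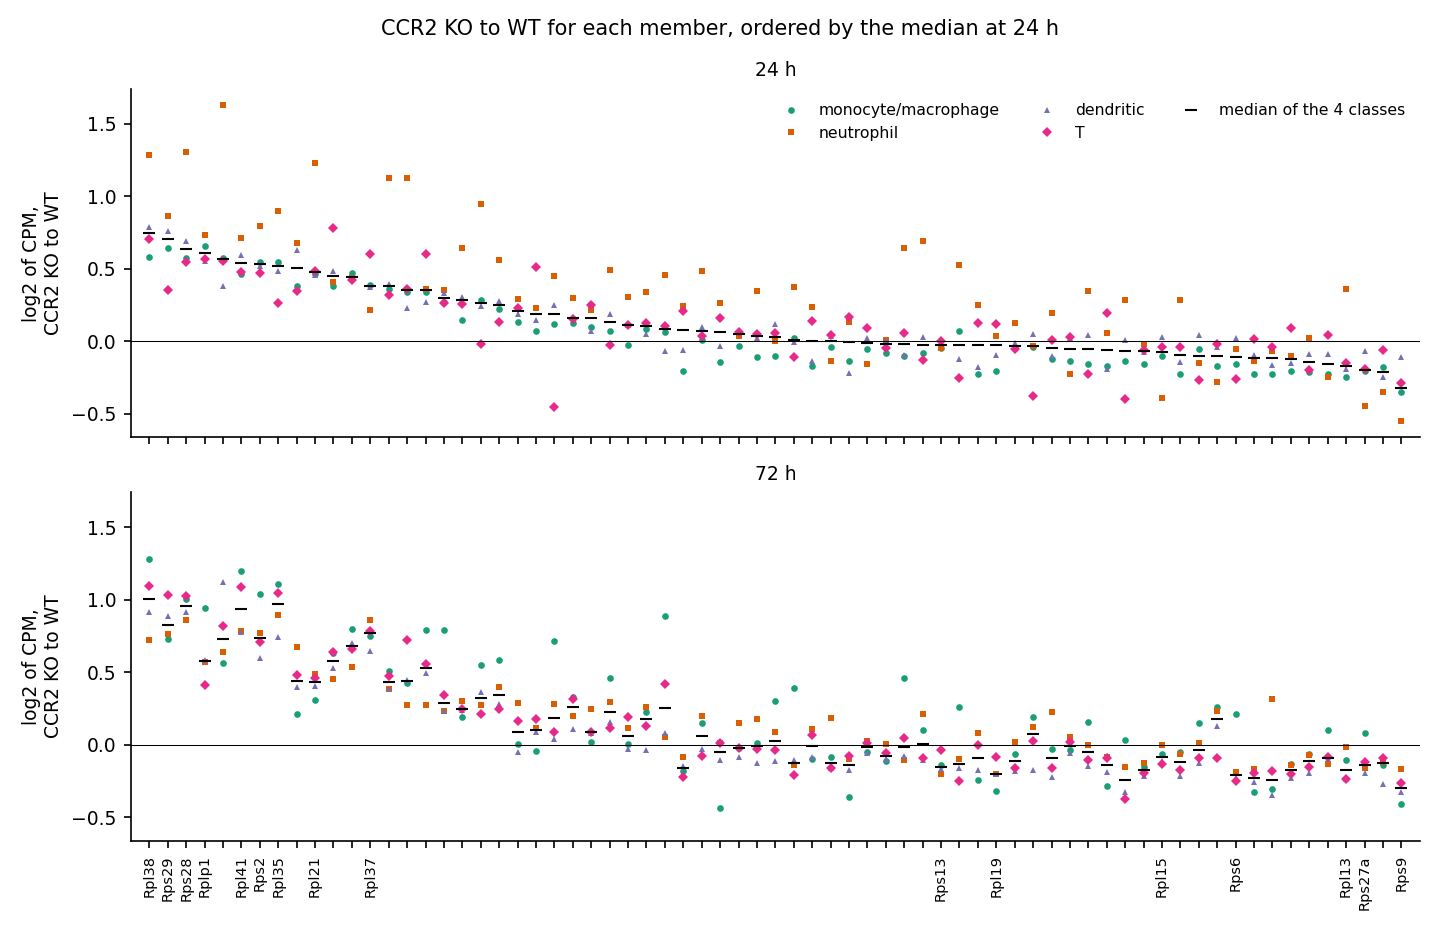
Log2 ratio of CPM, CCR2 KO to WT, for the 69 members tested in all comparisons, at 24 h (top) and 72 h (bottom), with 1 symbol per cell class and a bar for the median of the 4 classes. Members are ordered by their median at 24 h, some of those described for this comparison are labelled, and the order is largely kept at 72 h, with Rpl38, Rps29 and Rps28 at the left and Rps9 at the right.

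The size of this set was measured by picking members in the 24 h libraries and reading them in the 72 h libraries. Of 69 members tested in 4 classes at 24 h, 25 (36.2%) had a log2 ratio of CCR2 KO to WT above 0 in each class, compared with 138 of 1326 other genes (10.4%). The 4 classes come from the same pair of libraries and are not separate evidence. The other genes were not matched to the members for level. The median core gene was at 1550.1 CPM over all cells, whereas other genes entered at 50 CPM. The T cells of WT 24 h held only 85683 UMIs, so that signs of low genes are uncertain there. At 72 h 24 of these 25 were above 0 in monocytes/Mφs, 25 in neutrophils, 22 in dendritic cells and 24 in T cells, and 15, 11, 11 and 12 were called higher. Of the 138 other genes picked in the same way, 66.4%, 44.9%, 47.4% and 52.6% of those tested were above 0 at 72 h, and 33 of 134, 10 of 136, 15 of 135 and 14 of 135 were called higher. The 25 members took 3.44% of the UMIs of WT and 5.15% of those of CCR2 KO monocytes/Mφs at 72 h, a ratio of 1.50 (1.49 to 1.51), while the other 61 members took 9.96% and 9.90% (0.994, 0.990 to 0.999). In neutrophils the ratios were 1.39 (1.35 to 1.43) and 1.0001 (0.981 to 1.02), in dendritic cells 1.31 and 0.912, and in T cells 1.38 and 0.943. At 72 h the 25 together were thus higher in CCR2 KO in each class. The other 61 together were near the WT level in monocytes/Mφs and neutrophils and below it in dendritic cells and T cells.

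These 25 members had short transcripts. Their median length was 558 bases, compared with 791 for the 44 members that were not picked, and 12 of 25 were under 500 bases, compared with 4 of 44. Over all members tested, the Spearman correlation of length with the ratio of CCR2 KO to WT was -0.33 to -0.49 in the 8 comparisons of 4 classes and both times, and over other genes -0.15 to 0.12. Lengths are those of the shortest annotated principal transcript, which may differ from the transcripts used in these cells. By this measure Rpl35 (946 bases) and Rps2 (998 bases) were longer members with high ratios. Of the 25, 21 share 60 identical bases with another annotated gene, compared with 28 of the 44. At 72 h other short genes were higher too. In monocytes/Mφs genes under 500 bases that are no members had a median log2 ratio of 0.46 (50 genes), compared with 0.73 for 17 members of that length. In neutrophils, dendritic cells and T cells the medians of such other genes were 0.20, 0.23 and 0.33. Those of the short members were 0.28, 0.52 and 0.54. At 24 h the medians in monocytes/Mφs were -0.04 for other short genes (48 genes) and 0.34 for short members. In neutrophils they were 0.26 and 0.59, in dendritic cells 0.17 and 0.33, and in T cells -0.004 and 0.36. The part of transcript length and of shared sequence in the difference between genotypes was not tested.

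**Figure D5:**
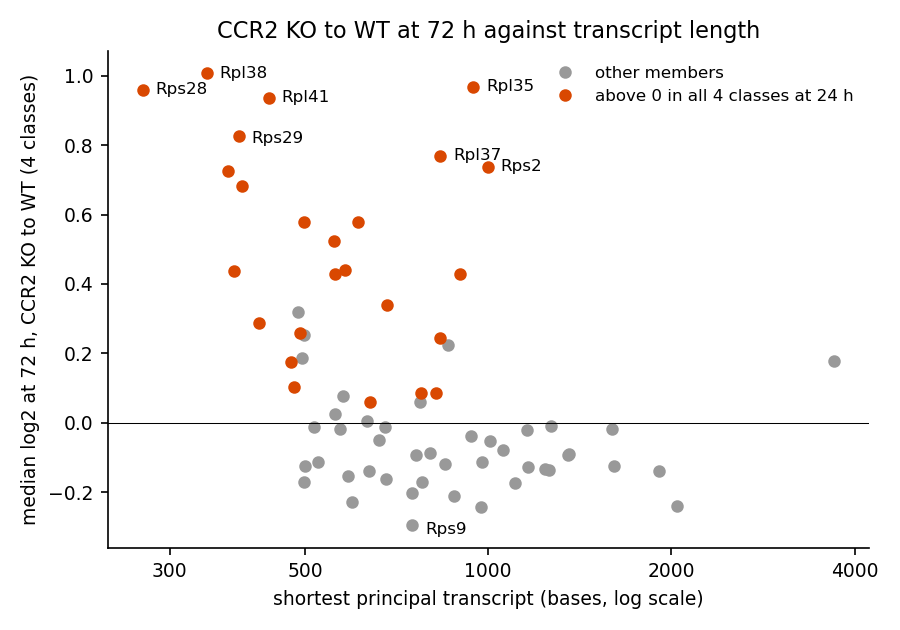
Log2 ratio at 72 h, CCR2 KO over WT, as the median of 4 classes (vertical axis) against the length of the shortest principal transcript in bases (horizontal axis, log scale) for 69 members. The 25 members picked at 24 h are coloured and have a median length of 558 bases; Rpl35, Rpl37 and Rps2 are longer members with high ratios.

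Among the paralog copies at 50 CPM or more in monocytes/Mφs, Rpl22l1 had the highest ratio of CCR2 KO to WT at 72 h. Rpl22l1 can take the place of Rpl22, and its ratio of 72 h to 24 h in CCR2 KO was also the highest. Rpl22l1 (chromosome 3, 28805436 to 28807424, plus strand) was at 372, 256, 260 and 636 CPM in monocytes/Mφs of the 4 libraries. It was below WT in CCR2 KO at 24 h (-0.54, -0.64 to -0.44) and above it at 72 h (1.29, 1.19 to 1.38), and the difference between both times was not tested. Dividing cells were counted beside Rpl22l1. Monocytes/Mφs with 3 or more markers of division were 0.248%, 2.59%, 4.55% and 36.1% of the class (3, 5, 38 and 43 cells). Rpl22l1 was at 817 CPM in those of CCR2 KO 72 h, compared with 356 CPM in cells without such a marker. In WT 72 h these values were 414 and 253 CPM. The part of dividing cells and of plasma cell RNA in the result was not tested. In T, NK and B cells Rpl22l1 lay between 572 and 1245 CPM, and in neutrophils between 20.5 and 70.7.

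The other copies had patterns of their own. Rps27l was higher in monocytes/Mφs (632, 661, 349 and 644 CPM) than in T cells (222, 238, 173 and 232) in each library, and in neutrophils it went from 92.8 and 127 CPM at 24 h to 410 and 425 at 72 h. Rps27rt, which shares sequence with Rps27, was higher in CCR2 KO than in WT at both times in monocytes/Mφs (43.0 and 64.1 CPM at 24 h, 60.7 and 89.8 at 72 h). Rpl36al was at 146, 194, 101 and 215 CPM and Rpl7l1 at 117, 117, 65.3 and 97.0 CPM in these cells, in the order of libraries above. Rps19bp1, whose product binds the ribosomal protein S19, was at 49.1, 52.8, 27.9 and 34.3 CPM. Rpl3l, known from muscle, had 162 of its 189 UMIs (85.7%) in neutrophils, at 12.3, 21.1, 20.5 and 28.8 CPM, compared with at most 0.258 CPM in monocytes/Mφs. It lies 498 bases before Msrb1 on the same strand, and Msrb1, a methionine sulfoxide reductase, was itself at 3182, 2947, 2279 and 2050 CPM in neutrophils and at 231 to 342 CPM in monocytes/Mφs. Whether reads from the start of Msrb1 were counted for Rpl3l was not tested.

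Ribosomal proteins with other names, Rack1 and Fau among them, are missed by the name rule. Rack1, a scaffold on the 40S head, was at 57.3 to 228 CPM in neutrophils and at 1293 to 1689 in monocytes/Mφs, as the members were. Fau, which makes the 40S protein S30, kept a higher level in neutrophils, at 2143, 2100, 3421 and 3230 CPM in the 4 libraries, compared with 2823, 2782, 4208 and 3352 CPM in monocytes/Mφs.

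Over the 14 sums of a class and library with at least 50 cells, the log2 CPM of 74 of 79 members had a Pearson r over 0.9 with the summed members (median 0.99), compared with 442 of 3176 other genes (median 0.26). Members are part of the sum they were compared with, which the other genes are not. The points share libraries and are few, and those of neutrophils lie far below the others, so that this is a description. The members below 0.9 were Rps9 (0.86), Rps27 (0.75), Rps27rt (0.67), Rpl7l1 (0.63) and Rps27l (0.51). The genes most like the members were Naca (0.995), mt-Nd2 (0.99), Rack1 (0.99), Eif3f (0.99), Uba2 (0.99), mt-Atp6 (0.99), mt-Cytb (0.99), Nsa2 (0.99), Aimp1 (0.99) and Mdh1 (0.99). Naca binds nascent chains at the ribosome and Eif3f belongs to an initiation factor, and mt-Nd2, mt-Atp6 and mt-Cytb are encoded by the mitochondrial genome.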

How the data were processed

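CD45+ cells were sorted from the muscularis and run on a 10x 3' chip, with about 1000 cells targeted per library. Per the labels and the methods of the study, the authors aligned reads with Cell Ranger 3.0.2 to mm10 and kept cells with at least 200 genes and under 10% mitochondrial UMIs in Seurat. The deposited values are counts of UMIs per gene and cell, not normalized, and how doublets were treated is not given in the sources used here.

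From these counts, sums were taken per class and library. A cell was classed by its number of detected markers: at least 6 of 13 for monocytes/Mφs, 5 of 11 for neutrophils, 2 of 9 for dendritic cells, 3 of 9 with a Cd3 gene for T cells, 3 of 8 without one for NK cells, 3 of 8 for innate lymphoid cells and 4 of 8 for B cells. These minimums were set after seeing the data. Shares carry exact Clopper-Pearson 95% intervals and ratios exact conditional Poisson 95% intervals, both of counting error only. Among genes at 50 CPM or more in the higher library, a gene was called where its log2 ratio passed 0.5 and the interval did not hold 0. The calling was tested on simulated data, where it recovered 87.5% to 100% of 200 genes changed 2-fold, with 0 to 8 unchanged genes called in monocytes/Mφs and 2 to 106 in neutrophils (106 of 3129 genes for CCR2 KO to WT at 72 h). The simulated libraries differed otherwise by counting noise alone. Differences between mice, libraries and cell mixes were not simulated, so these counts give no error rate for the calls made here. Named members were the 5 highest and 5 lowest over all cells, the 3 furthest up and 3 furthest down per comparison at 100 CPM or more in monocytes/Mφs and neutrophils, the 5 highest and 5 lowest between lymphocytes and neutrophils, and every paralog, with the 10 other genes most like the members. A few genes that the rule names are not reported here. Members named outside this rule were chosen after their values were seen. Motifs were searched as letters in RefSeq promoter windows (GRCm38.p6), and transcripts and gene coordinates came from GENCODE vM21. Sums and tests used Python 3.11.15, numpy 2.4.6, scipy 1.17.1 and pandas 2.3.3, and clusters scanpy 1.11.5 with leidenalg 0.10.2. The members and lists were chosen with earlier results of these data known. Alternatives covered scaling, minimum level, cell filters, thinning, gates and Leiden clusters.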

Additional observations from a re-analysis of the deposited data

Results flagged for a closer look

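Rpl22l1 in monocytes/Mφs had opposite signs in the same contrast. Its log2 ratio of 72 h to 24 h was -0.51 in WT and 1.31 in CCR2 KO, and its ratio of CCR2 KO to WT was -0.54 at 24 h and 1.29 at 72 h. With 1 library per group this difference was not tested.

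The 8 rows whose symbol carries -ps, which the name rule leaves out, held 0.0137% of UMIs in WT 24 h, 0.0166% in CCR2 KO 24 h, 0.0172% in WT 72 h and 0.0293% in CCR2 KO 72 h. Some of them share stretches of identical bases with members, such as Rpl27-ps3 with Rpl27.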

How the results depend on the processing

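With 1 library per group no replicate could be left out. No paired analysis was possible because each group had 1 library. The log2 ratio of the member share was computed for neutrophils to monocytes/Mφs in WT and CCR2 KO at 24 h and in WT and CCR2 KO at 72 h (-2.96, -2.78, -1.76 and -1.76), and for CCR2 KO to WT at 24 h and 72 h and 72 h to 24 h in WT and CCR2 KO within monocytes/Mφs (0.0013, 0.17, 0.098 and 0.26) and within neutrophils (0.18, 0.16, 1.30 and 1.28). It kept its sign in 139 of 144 alternatives. Where any value of a set moved by more than its counting interval, values follow in that order of libraries and comparisons. Some of the values given lie within their interval. The cause of the moves was not tested. With cells thinned to 1000 UMIs, the neutrophil to Mφ ratios were -2.72, -2.64, -1.66 and -1.54, the Mφ ratios were -0.033, 0.059, 0.12 and 0.21 and the neutrophil ratios were 0.053, 0.18, 1.18 and 1.31. With the mean of single cells, the neutrophil to Mφ ratios were -2.85, -2.64, -1.69 and -1.55, the Mφ ratios were -0.039, 0.065, 0.11 and 0.21 and the neutrophil ratios were 0.21 (CCR2 KO to WT at 72 h) and 1.31 (72 h to 24 h in CCR2 KO). With mitochondrial UMIs left out of the total, the neutrophil to Mφ ratios were -3.01, -2.82, -1.81 and -1.83 and the Mφ ratios were -0.0062, 0.19, 0.10 and 0.30. With the 20 most abundant other genes left out of the total, the neutrophil to Mφ ratios were -2.62, -2.55, -1.68 and -1.58, the Mφ ratios were 0.024, 0.10, 0.17 and 0.24 and the neutrophil ratios were 0.093, 0.20, 1.11 and 1.21. With core members alone, the Mφ ratios were 0.16 (CCR2 KO to WT at 72 h) and 0.10 (72 h to 24 h in WT). With Leiden clusters in place of gates, the neutrophil to Mφ ratios were -2.94, -2.73, -1.63 and -1.62, the Mφ ratios were 0.0042, 0.15, 0.094 and 0.24 and the neutrophil ratios were 0.21, 0.15, 1.41 and 1.34. With cells of at most 5% mitochondrial UMIs, the neutrophil to Mφ ratios were -1.79 (WT 72 h) and -1.82 (CCR2 KO 72 h) and the Mφ ratios were -0.0025, 0.19, 0.14 and 0.33. With cells of 2 gates kept, the neutrophil to Mφ ratios were -2.06, -2.74, -1.54 and -1.68, the Mφ ratios were 0.15 (CCR2 KO to WT at 72 h) and 0.11 (72 h to 24 h in WT) and the neutrophil ratios were -0.68, 0.010, 0.63 and 1.33. With neutrophils without a Siglecf UMI, the neutrophil to Mφ ratios were -2.98, -2.86, -2.12 and -2.28 and the neutrophil ratios were 0.13, 0.0035, 0.96 and 0.84. With gates 1 marker looser, the neutrophil to Mφ ratios were -2.97, -2.80, -1.73 and -1.72, the Mφ ratios were 0.0054, 0.15, 0.093 and 0.24 and the neutrophil ratio was 1.32 (72 h to 24 h in CCR2 KO). With gates 1 marker stricter, the neutrophil to Mφ ratios were -2.97, -2.80, -1.83 and -1.91, the Mφ ratios were 0.010 (CCR2 KO to WT at 24 h) and 0.26 (72 h to 24 h in CCR2 KO) and the neutrophil ratios were 0.18, 0.083, 1.24 and 1.15. Under TMM scaling, called members numbered 4 lower for CCR2 KO to WT at 72 h in monocytes/Mφs (instead of 0), 0 higher for 72 h to 24 h in WT in monocytes/Mφs (instead of 1), 6 higher for 72 h to 24 h in CCR2 KO in monocytes/Mφs (instead of 16), 2 lower for CCR2 KO to WT at 24 h in neutrophils (instead of 1) and 1 lower for 72 h to 24 h in WT in neutrophils (instead of 0). With CPM taken over UMIs of other genes, called members numbered 3 higher for 72 h to 24 h in WT in monocytes/Mφs (instead of 1). Under a minimum of 20 CPM, called members numbered 2 higher for 72 h to 24 h in WT in monocytes/Mφs (instead of 1). Under no minimum level, called members numbered 2 higher for 72 h to 24 h in WT in monocytes/Mφs (instead of 1). Under Leiden clusters in place of gates, called members numbered 0 lower for CCR2 KO to WT at 24 h in monocytes/Mφs (instead of 1), 2 higher for 72 h to 24 h in WT in monocytes/Mφs (instead of 1), 0 lower for CCR2 KO to WT at 24 h in neutrophils (instead of 1) and 1 lower for CCR2 KO to WT at 72 h in neutrophils (instead of 0). In cells of at most 5% mitochondrial UMIs, called members numbered 6 higher for 72 h to 24 h in WT in monocytes/Mφs (instead of 1) and 0 lower for 72 h to 24 h in CCR2 KO in monocytes/Mφs (instead of 1). In neutrophils without a Siglecf UMI, called members numbered 2 lower for CCR2 KO to WT at 24 h in neutrophils (instead of 1), 3 higher for CCR2 KO to WT at 72 h in neutrophils (instead of 12) and 1 lower for CCR2 KO to WT at 72 h in neutrophils (instead of 0). Under gates 1 marker stricter, called members numbered 2 higher for 72 h to 24 h in WT in monocytes/Mφs (instead of 1) and 2 lower for CCR2 KO to WT at 72 h in neutrophils (instead of 0). Under gates 1 marker looser, called members numbered 0 lower for CCR2 KO to WT at 24 h in monocytes/Mφs (instead of 1). The median over members turned to -0.089 (WT) and -0.016 (CCR2 KO) for 72 h to 24 h in monocytes/Mφs under TMM scaling, to 0.0027 for CCR2 KO to WT at 24 h in monocytes/Mφs under a minimum of 20 CPM, and to -0.057 for CCR2 KO to WT at 72 h in neutrophils without a Siglecf UMI. TMM took 0.59 and 0.55 off the neutrophil log2 ratios of 72 h to 24 h in WT and CCR2 KO, and 0.18, 0.15 and 0.21 off those of monocytes/Mφs for CCR2 KO to WT at 72 h and for 72 h to 24 h in WT and CCR2 KO. The Siglecf and marker number alternatives were chosen after seeing the data. Among these alternatives, the share of all genes called was computed only for neutrophils without a Siglecf UMI. Depth limits the rare classes, with 1 innate lymphoid cell, 4 NK cells and 5 B cells in WT 24 h, and the thresholds of the gates, with 172 monocytes/Mφs at 5 or 6 markers and 481 cells at 4 or 5 neutrophil markers.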
